A study of Mus musculus with 2 samples.

Results

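The endoplasmic reticulum chaperones and stress factors described here are 10 genes, chosen by name and by role from the 25120 genes measured. Hspa5, Hsp90b1, Pdia4, Pdia6, Dnajb9 and Sdf2l1 are the 6 chaperones and folding enzymes known as targets of the transcription factors ATF6 and XBP1. Calr and Canx are the 2 lectin chaperones, which bind the sugar chains of new glycoproteins. They are set apart here by that role, not because ATF6 or XBP1 is known to leave them out. Xbp1 and Atf4 are 2 transcription factors of the stress response itself. In GENCODE vM21 (GRCm38), Hspa5 lies at chr2:34771970-34777547, Xbp1 at chr11:5520659-5525893 and Atf4 at chr15:80255184-80257541, all on the plus strand. All 10 genes had a column in both count tables, and all 10 had enough counts to be compared in each of the 3 large cell classes.

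The study profiled single cells of the basolateral amygdala, a part of the brain's emotional circuitry, from adult C57BL/6 mice given vehicle or 1 mg/kg of FGF21 once a day for 3 days. FGF21 is a hormone that signals through an FGF receptor paired with the co-receptor KLB. Tissue from 3 mice was pooled for each of the 2 libraries, digested with pronase while actinomycin D kept transcription blocked, and passed through a sort on tdTomato fluorescence and Hoechst viability dye. The counts are unique molecular identifiers (UMIs), each standing for 1 captured RNA molecule, from BD Rhapsody whole-transcriptome libraries. The series is titled for KLB-expressing cells, and what drives tdTomato in these mice is not given in the sources used here. With 1 library a treatment, the effect of FGF21 and any other difference between the libraries cannot be told apart. No test across animals was possible, and every interval below covers counting error only.

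The endoplasmic reticulum folds secreted and membrane proteins with the help of chaperones that bind unfolded chains. When unfolded chains build up, the sensors IRE1, PERK and ATF6 raise the folding capacity: IRE1 splices Xbp1 mRNA into its active form, ATF6 is cut to release a transcription factor, and PERK slows translation and favours production of ATF4. The branches have partly separate targets, since ATF6 and XBP1 act on chaperones and degradation genes, and ATF4 on amino acid metabolism and transport. Cell types that secrete or carry many membrane proteins tend to keep a high basal level of chaperones. Gene counts do not separate spliced from unspliced Xbp1, and Atf4 is controlled largely at translation, so neither gene's count measures the activity of its branch.

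After filtering, 2337 vehicle cells (median 4232 UMIs) and 1935 FGF21 cells (median 6838 UMIs) were used. Klb itself gave 3 UMIs in the vehicle table and 0 in the FGF21 table, and tdTomato was seen in 22.3% and 34.9% of the cells. Of 12 barcodes found in both tables, 9 were among the cells used in each library. Classes were named from markers, with the 10 genes and the related gene lists kept out of the clustering, and 8 classes had at least 20 cells in each library. The microglia-like class held 1429 vehicle and 894 FGF21 cells, but cluster 0 held 98.9% of the former and cluster 1 held 96.8% of the latter. The oligodendrocyte precursor-like class (374 and 584 cells) was divided in the same way, between cluster 3 (94.9% of vehicle cells) and cluster 2 (97.9% of FGF21 cells). The astrocyte-like class (98 and 197 cells) was a single cluster shared by both libraries. The 5 smaller classes were mural-like (181 and 40), oligodendrocyte-like (41 and 82), differentiating oligodendrocyte precursor-like (36 and 38), border macrophage-like (47 and 25) and erythroid-like (46 and 20). Granulocyte genes (S100a8, S100a9, Retnlg) were among the leading genes of the border macrophage-like cluster, and its second-best marker list was that of T or NK cells. Markers of other cell types were found in microglia-like cells at a median of 28.5% (vehicle, range over 5 marker lists 18.3% to 50.3%) and 36.4% (FGF21, range 22.6% to 71.8%) of their level in the whole library, which is the measure of free RNA used below. These foreign markers moved with the library: the summed astrocyte list in microglia-like cells stood at 829 UMIs per 1000000 UMIs of the class (CPM, the unit of all levels below) in vehicle and 1266 in FGF21.

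The classical ER stress response element, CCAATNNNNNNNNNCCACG, is the site through which ATF6, together with the factor NF-Y, acts on chaperone promoters. Promoter windows of 300 bases, from 250 before to 50 after each annotated start (RefSeq, GRCm38.p6), were searched on both strands, and 10 of 10 genes matched the table. The element was found in 5 of the 10 genes (Hspa5, Hsp90b1, Pdia6, Calr and Canx) and in 39 of all 32851 windows (0.119%). Both lectin chaperones therefore carried the same letters as 3 of the 6 ATF6 and XBP1 targets. The 6 copies are shown because the 5 genes share the element, while their ratios between the libraries ranged from 0.573 (Hspa5) to 0.919 (Calr) in microglia-like cells. They are written in the direction of the element, with its fixed letters in capitals.
Hspa5 (chr2:34772025-34772043, 46 bases before the start): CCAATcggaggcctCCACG
Hsp90b1, far copy (chr10:86705638-86705656, 193 bases before the start): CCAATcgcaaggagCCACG
Hsp90b1, near copy (chr10:86705533-86705551, 88 bases before the start, opposite strand): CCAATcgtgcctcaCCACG
Pdia6 (chr12:17266491-17266509, 79 bases before the start): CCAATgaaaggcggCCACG
Calr (chr8:84847075-84847093, 143 bases before the start, opposite strand): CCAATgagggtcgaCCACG
Canx (chr11:50325800-50325818, 126 bases before the start): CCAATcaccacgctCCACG
The sequence around the element is given for 1 target with a pair of copies and for both lectin chaperones, read along each gene, from the far end of the window to the first annotated exon, with the elements in capitals. The surroundings of the Hspa5 element are not shown, because the element itself, though before the RefSeq start, lies inside the first exon of a longer GENCODE transcript.
Hsp90b1 (chr10:86705510-86705694, minus strand): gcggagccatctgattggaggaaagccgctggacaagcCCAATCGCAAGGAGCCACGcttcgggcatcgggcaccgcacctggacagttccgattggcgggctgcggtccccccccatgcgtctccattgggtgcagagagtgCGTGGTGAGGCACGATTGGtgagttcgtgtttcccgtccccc
Calr (chr8:84846935-84847181, minus strand): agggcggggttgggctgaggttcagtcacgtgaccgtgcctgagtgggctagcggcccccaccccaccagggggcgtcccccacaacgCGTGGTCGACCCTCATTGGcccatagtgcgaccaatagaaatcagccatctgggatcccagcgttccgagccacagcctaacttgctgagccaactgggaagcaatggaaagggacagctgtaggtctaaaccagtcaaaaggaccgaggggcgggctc
Canx (chr11:50325674-50325923, minus strand): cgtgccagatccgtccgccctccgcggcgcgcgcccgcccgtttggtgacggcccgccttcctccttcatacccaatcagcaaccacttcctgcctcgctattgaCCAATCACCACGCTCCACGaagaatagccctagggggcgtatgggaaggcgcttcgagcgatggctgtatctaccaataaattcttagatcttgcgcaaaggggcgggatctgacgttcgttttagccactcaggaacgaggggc
The other motifs searched were the second ER stress element ATTGGNCCACG (12 windows, 0.0365%), the XBP1-type element TGACGTGG (222 windows, 0.676%) and the composite element TTGCATCA read by ATF4 (294 windows, 0.895%). None of these was found in the windows of the 10 genes, which says only that these letters are not there. The first of them differs from the classical element in spacing and orientation and was counted apart from it. Its last 5 letters, CCACG, end both elements and alone were present in 32.8% of all windows.

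Hspa5, which encodes BiP, the Hsp70-type chaperone of the endoplasmic reticulum and the regulator of its stress sensors, had the lowest ratio of the 10 genes in the microglia-like and oligodendrocyte precursor-like cells of the FGF21 library. In microglia-like cells its level was 1237 CPM in vehicle (7247 UMIs) and 708 CPM in FGF21 (3932 UMIs), a ratio of 0.573 (95% interval 0.551 to 0.595), or 1.75-fold lower. In oligodendrocyte precursor-like cells it was 1110 and 561 CPM, a ratio of 0.505 (0.479 to 0.532), or 1.98-fold lower. The difference was smaller in astrocyte-like cells, at 695 and 574 CPM (ratio 0.826, 0.718 to 0.952). Among all genes with at least 50 UMIs in the class, 2.38% had a ratio as low as that of Hspa5 in microglia-like cells, 0.985% in oligodendrocyte precursor-like cells and 25.1% in astrocyte-like cells. With the estimated free RNA subtracted, the ratio was 0.590 for microglia-like cells and 0.475 in oligodendrocyte precursor-like cells, but 1.04 in astrocyte-like cells (524 and 545 CPM), so the direction in astrocyte-like cells rests on that step.

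The smaller classes had Hspa5 lower in FGF21 as well. In border macrophage-like cells it was 1285 and 666 CPM (ratio 0.519, 0.387 to 0.688), and in mural-like cells, which wrap the vessels, 1013 and 663 CPM (0.655, 0.526 to 0.810). The make-up of the border macrophage-like class differed between the libraries. Its border macrophage markers summed to 10383 and 4878 CPM, and granulocyte markers to 2610 and 1185 CPM. T or NK cell markers there summed to 244 and 824 CPM, and B cell markers to 7.88 and 259 CPM. The part of this mix in the ratios of the class was not tested. The differentiating oligodendrocyte precursor-like cells had 1035 and 717 CPM (0.693, 0.608 to 0.790), and the oligodendrocyte-like cells 556 and 388 CPM (0.698, 0.575 to 0.851). Before subtraction of free RNA, Hspa5 was thus lower in 7 of the 7 classes other than erythroid-like cells, with the interval under 1 in all 7. The free RNA estimate came to 58.2% of Hspa5 in oligodendrocyte-like cells and 32.0% in mural-like cells. All classes come from the same 2 libraries and share their free RNA, so they are not independent repeats. The matching share of all genes is not given here. These limits also hold for the class counts of the other genes below. Red cell precursors lose their endoplasmic reticulum as they mature, and the erythroid-like cells had 190 CPM in vehicle (18 UMIs) and 337 CPM in FGF21 (14 UMIs). The free RNA estimate came to 168% and 67.3% of those levels, so little of Hspa5 there stands above it.

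The order of the classes also differed. In vehicle, Hspa5 was highest in border macrophage-like and microglia-like cells, whose intervals overlapped, followed by the oligodendrocyte precursor-like, differentiating precursor-like and mural-like cells. Astrocyte-like cells came next, with oligodendrocyte-like cells lower again, and the interval of the astrocyte-like cells lay below that of the mural-like cells. In FGF21 the range between the classes other than the erythroid-like was narrower, from 388 CPM in oligodendrocyte-like to 717 CPM in differentiating precursor-like cells. There the oligodendrocyte precursor-like cells stood at the level of the astrocyte-like cells, with overlapping intervals.

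**Figure D1:**
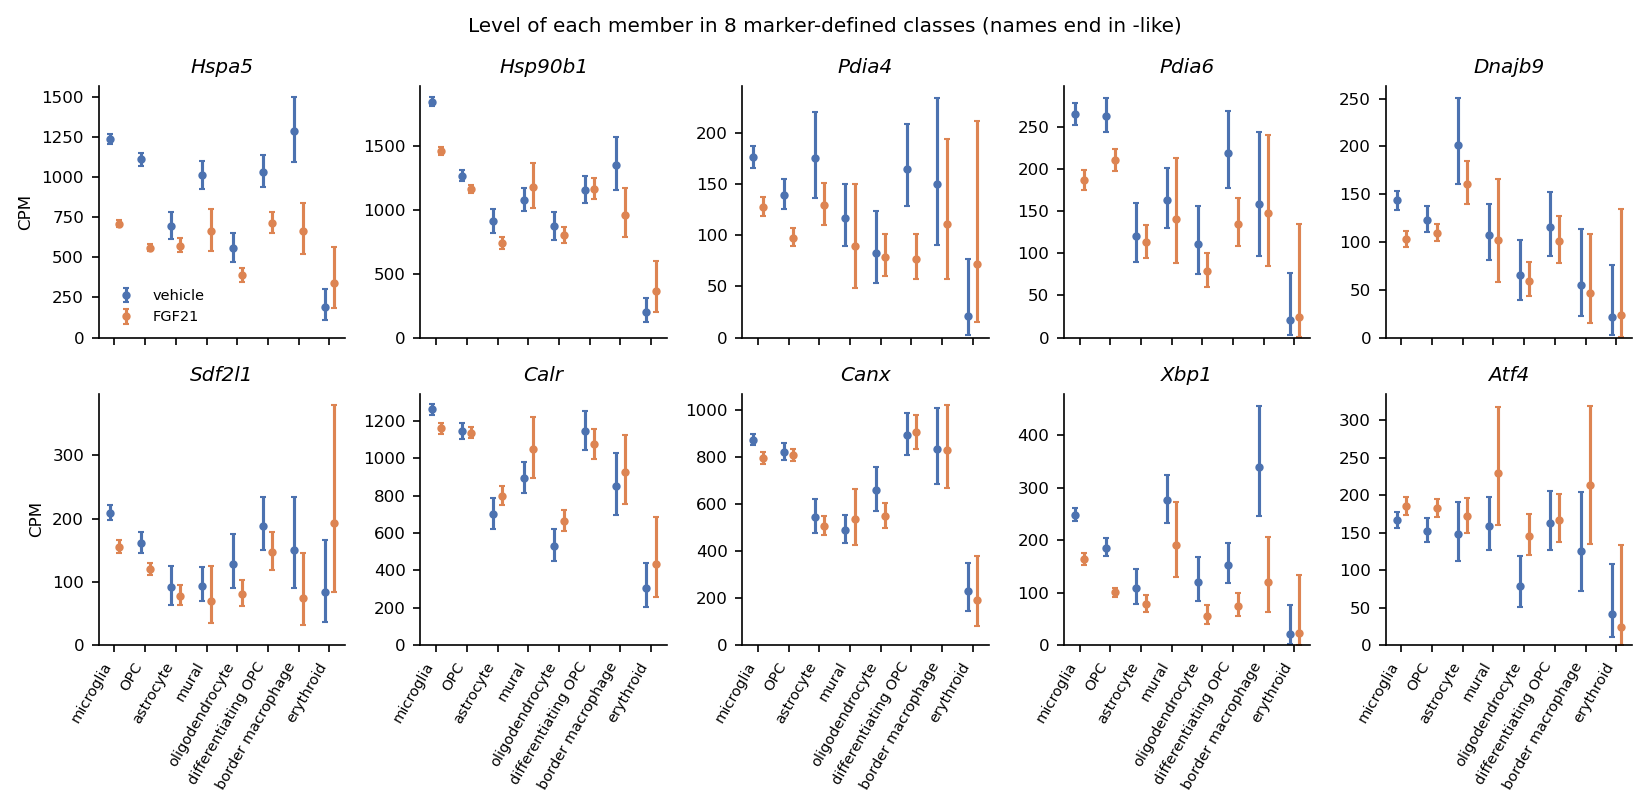
Level of each of the 10 genes in CPM (y axis, linear from 0, a separate scale for each gene) in 8 marker-defined classes (x axis) of the vehicle (blue) and FGF21 (orange) libraries. Points are sums over the cells of a class and bars are exact Poisson 95% intervals. For Hspa5 the orange points lie below the blue ones in every class but the erythroid-like. For Calr and Canx they lie closer together in microglia-like and oligodendrocyte precursor-like cells. In oligodendrocyte-like cells Calr is higher and Canx lower in FGF21.

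The lower Hspa5 level was spread over the cells. Each cell was reduced at random to 2000 UMIs, which left out 78 vehicle and 26 FGF21 microglia-like cells. Of the rest, 86.2% of vehicle cells (84.3% to 88.0%, 1351 cells) and 69.2% of FGF21 cells (66.1% to 72.3%, 868 cells) had at least 1 Hspa5 UMI. At full depth these shares were 93.4% and 91.8%, with median depths of 4173 and 6015.5 UMIs. The median cell had 2 Hspa5 UMIs in vehicle and 1 in FGF21, and cells with 6 or more made up 7.77% and 1.15%. In oligodendrocyte precursor-like cells the share with an Hspa5 UMI was 85.7% (371 cells) and 64.1% (580 cells), and the share with 6 or more was 5.66% and 0.690%. For comparison, erythroid-like cells reduced in the same way showed Hspa5 in 26.1% of 23 vehicle and 54.5% of 11 FGF21 cells. Those cells had median depths of 1989 and 2256 UMIs. No single cell held more than a small share of the UMIs: the richest cell gave 0.524% and 0.865% of the microglia-like Hspa5 UMIs.

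**Figure D2:**
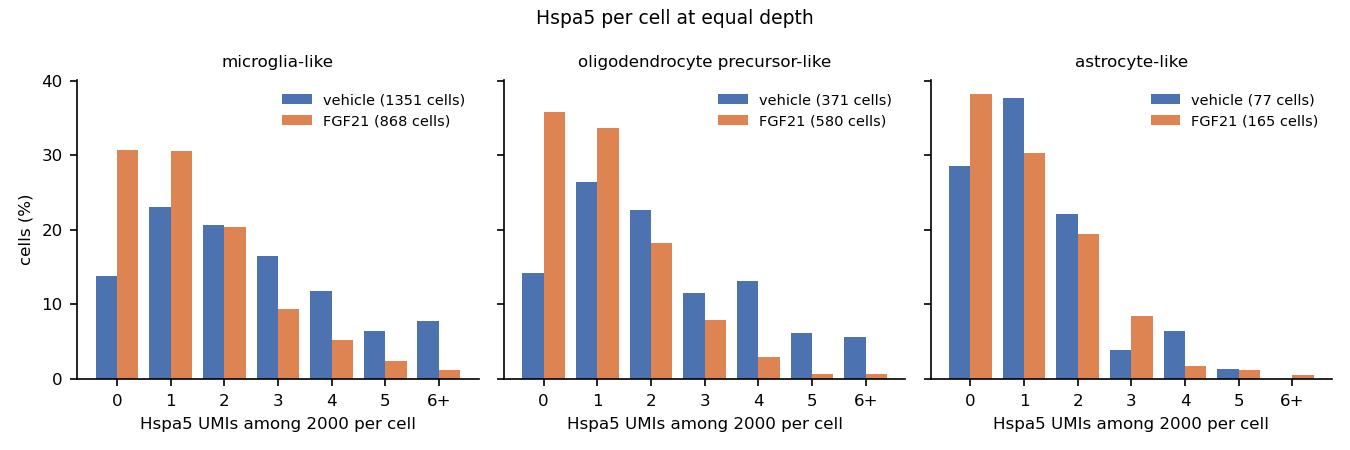
Share of cells in percent (y axis) with 0 to 6 or more Hspa5 UMIs among 2000 UMIs per cell (x axis), in the 3 large classes of the vehicle (blue) and FGF21 (orange) libraries; cell numbers stand in the legends. In the first 2 panels the orange bars are taller at 0 and 1 and the blue bars from 3 upward; in microglia-like cells 13.8% of vehicle and 30.8% of FGF21 cells had none.

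The clusters that divided the libraries gave the same direction within them. In cluster 0, Hspa5 was 1229 CPM in the 1413 vehicle cells and 415 CPM (278 to 596) in the 29 FGF21 cells. In cluster 1 it was 1971 CPM (1635 to 2357) in the 16 vehicle cells and 712 CPM in the 865 FGF21 cells. Likewise, in cluster 2 it was 1310 CPM in 19 vehicle cells and 560 CPM in 572 FGF21 cells, and in cluster 3 it was 1100 CPM in 355 vehicle cells and 671 CPM (450 to 964) in 12 FGF21 cells. In each of these 4 clusters the FGF21 cells had the lower level, although the minority in each was small.

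Mitochondrial RNA and depth were compared in the same way. The mitochondrially encoded genes of microglia-like cells summed to 52910 CPM in vehicle and to 59772 CPM in FGF21, and those of oligodendrocyte precursor-like cells to 52405 and 50103 CPM. When microglia-like cells of both libraries were divided at common limits into tertiles by mitochondrial share, the Hspa5 ratio was 0.651, 0.567 and 0.522 from the lowest to the highest tertile. Divided by UMIs per cell it was 0.536, 0.601 and 0.527. In oligodendrocyte precursor-like cells the ratios were 0.507, 0.509 and 0.496 by mitochondrial share, and 0.522, 0.527 and 0.441 by depth. In astrocyte-like cells they ran from 0.666 in the tertile with the lowest mitochondrial share to 0.955 in that with the highest, each on 32 to 66 cells per library. The part of mitochondrial share and of depth in the difference was not otherwise tested.

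**Figure D3:**
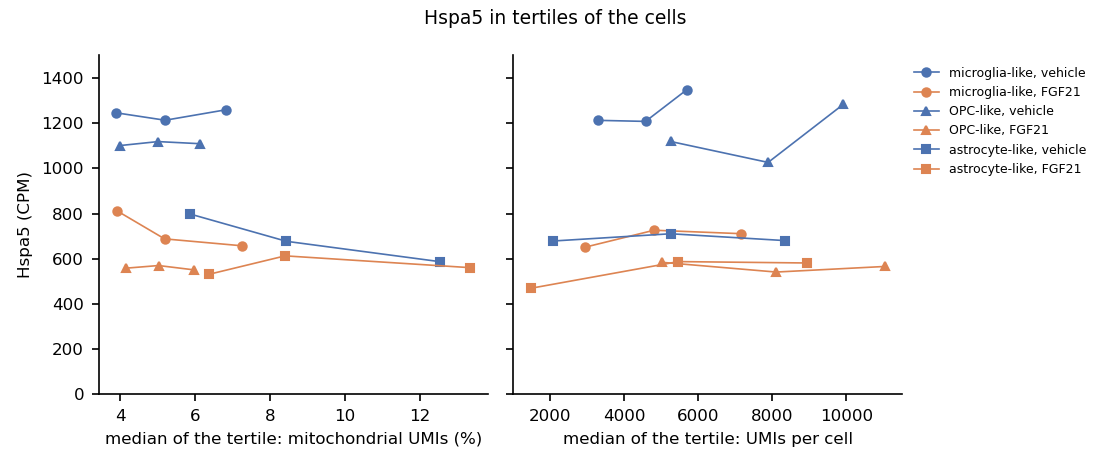
Hspa5 level in CPM (y axis, from 0) in tertiles of the cells by mitochondrial share in percent (left) and by UMIs per cell (right), each placed at the median of its tertile (x axis), with limits common to both libraries. Circles are microglia-like, triangles oligodendrocyte precursor-like and squares astrocyte-like cells; blue is vehicle and orange FGF21. The orange circles and triangles lie below the blue ones in every tertile (in microglia-like cells between 650 and 811 CPM against 1208 to 1348 CPM).

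The other ATF6 and XBP1 targets had ratios nearer to 1 than Hspa5 in microglia-like and oligodendrocyte precursor-like cells, but not in every class. Hsp90b1, which encodes GRP94, the Hsp90-type chaperone of the compartment, was 1845 and 1456 CPM in microglia-like cells (ratio 0.789, 0.767 to 0.813) and 1266 and 1162 CPM in oligodendrocyte precursor-like cells (0.918, 0.879 to 0.959). It was 909 and 739 CPM in astrocyte-like cells (0.814, 0.720 to 0.921), and in mural-like and differentiating precursor-like cells it was level or slightly higher (1.09 and 1.01, both intervals spanning 1). In vehicle, Hsp90b1 was highest in microglia-like cells, with an interval clear of all other classes.

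Pdia4 and Pdia6 encode disulfide isomerases, which make and rearrange disulfide bonds. Pdia4 was 176 and 128 CPM in microglia-like cells (ratio 0.726, 0.659 to 0.799), 140 and 97.7 CPM in oligodendrocyte precursor-like cells (0.700, 0.609 to 0.805), and 175 and 129 CPM in astrocyte-like cells (0.738, 0.554 to 0.991). Its lowest ratio was in the differentiating precursor-like cells, at 165 and 77.0 CPM (0.467, 0.320 to 0.678). Pdia6 was 265 and 186 CPM in microglia-like cells (0.705, 0.651 to 0.763) and 263 and 210 CPM in oligodendrocyte precursor-like cells (0.799, 0.725 to 0.882). In astrocyte-like cells it was 121 and 113 CPM (0.934), with an interval from 0.670 to 1.32 that spans no difference.

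Dnajb9 and Sdf2l1 encode partners of BiP: DNAJB9 is a J-protein that also helps BiP to restrain IRE1, and SDF2L1 works in complexes of BiP with J-proteins. Dnajb9 was 144 and 103 CPM in microglia-like cells (ratio 0.715, 0.642 to 0.797), but 123 and 110 CPM in oligodendrocyte precursor-like cells (0.888, 0.772 to 1.02). Unlike the other targets, it was highest in astrocyte-like cells in both libraries, at 202 and 161 CPM (0.797, 0.613 to 1.04). Pdia4 came close to this. Its level in astrocyte-like cells was 0.994 (0.770 to 1.26) of that in microglia-like cells in vehicle and 1.01 (0.845 to 1.20) in FGF21. Sdf2l1 was 209 and 156 CPM in microglia-like cells (0.746, 0.683 to 0.814) and 162 and 120 CPM in oligodendrocyte precursor-like cells (0.740, 0.652 to 0.841). Its astrocyte-like levels, 91.1 and 78.4 CPM, gave 0.861 with an interval from 0.583 to 1.29. Of the ratios of Pdia4, Pdia6, Dnajb9 and Sdf2l1, each was under 1 in 7 of 7 classes without the erythroid-like, and the interval was under 1 in 4, 3, 1 and 3 of them. In oligodendrocyte-like cells the free RNA estimate came to 75.4% of the Pdia6 level. For the 6 targets in astrocyte-like cells its median was 48.9%, from 22.6% (Dnajb9) to 58.7% (Sdf2l1), with 56.4% for Hsp90b1 and 57.2% for Pdia6.

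In microglia-like and oligodendrocyte precursor-like cells both lectin chaperones had ratios closer to 1 than any of the 6 targets. Calr encodes calreticulin, the soluble lectin chaperone and a calcium store, and Canx encodes calnexin, its membrane-bound relative. Calr was 1261 and 1159 CPM in microglia-like cells (ratio 0.919, 0.888 to 0.950), 1145 and 1136 CPM in oligodendrocyte precursor-like cells (0.991, 0.948 to 1.04), and 702 and 798 CPM in astrocyte-like cells (1.14, 0.996 to 1.30). In oligodendrocyte-like cells it was higher in FGF21, 532 against 665 CPM (1.25, 1.04 to 1.51), whereas Canx was lower there, 659 against 549 CPM (0.832, 0.700 to 0.993). The free RNA estimate came to 59.3% of Calr and 45.4% of Canx in those cells. Canx was 874 and 797 CPM in microglia-like cells (0.911, 0.875 to 0.949), 824 and 810 CPM in oligodendrocyte precursor-like cells (0.983, 0.932 to 1.04), and 547 and 508 CPM in astrocyte-like cells (0.929, 0.796 to 1.09). The interval of Calr excludes a ratio below 0.888 in microglia-like cells and below 0.948 in oligodendrocyte precursor-like cells, both clear of the intervals of Hspa5. The lectin chaperones had the classical element in their windows, as shown above, as did Hspa5, and its part in the ratios was not tested.

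Xbp1 was the second gene lower by more than 1.5-fold. It was 248 and 164 CPM in microglia-like cells (ratio 0.660, 0.607 to 0.718) and 186 and 101 CPM in oligodendrocyte precursor-like cells (0.542, 0.478 to 0.616). In astrocyte-like cells it was 108 and 77.6 CPM (0.716, 0.496 to 1.05). It was highest in border macrophage-like and mural-like cells of the vehicle library, at 339 and 276 CPM with overlapping intervals, against 120 and 191 CPM in FGF21 (ratios 0.355, 0.175 to 0.672, and 0.694, 0.452 to 1.03). Both vehicle intervals also overlapped that of the microglia-like cells (236 to 261 CPM). The border macrophage-like ratio rests on 43 and 13 UMIs, and on a class whose make-up differed between the libraries. In oligodendrocyte-like cells Xbp1 was 121 and 56.6 CPM (0.468, 0.293 to 0.752), and in differentiating precursor-like cells 153 and 75.5 CPM (0.493, 0.335 to 0.723). The Xbp1 ratio was under 1 in 7 of 7 classes without the erythroid-like, with the interval under 1 in 5. The free RNA estimate came to 66.4% of Xbp1 in oligodendrocyte-like cells and 57.1% in astrocyte-like cells. In microglia-like cells the ratio was within 1.5-fold after subtraction of free RNA (0.727), with cells weighted equally (0.695) and at 2000 UMIs per cell (0.670).

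Atf4 went the other way. It was 167 and 185 CPM in microglia-like cells (ratio 1.11, 1.02 to 1.21), 153 and 182 CPM in oligodendrocyte precursor-like cells (1.19, 1.06 to 1.35), and 148 and 172 CPM in astrocyte-like cells (1.16, 0.868 to 1.57). Many other genes rose as much. Of all genes with at least 50 UMIs, only 61.3%, 80.1% and 67.6% had a ratio below that of Atf4 in these classes, in that order. Its highest ratio was in oligodendrocyte-like cells, at 79.4 and 145 CPM (1.83, 1.16 to 3.00). The ratio was above 1 in 7 of 7 classes without the erythroid-like, with the interval above 1 in 3. Among the vehicle classes other than oligodendrocyte-like and erythroid-like cells, Atf4 was nearly flat, from 126 to 167 CPM, with neighbouring intervals overlapping.

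Counted by the 1.5-fold limit, 2 of 10 genes were lower in microglia-like cells (Hspa5 and Xbp1), where 5.27% of 11377 genes were lower and 12% were higher. The same 2 of 10 were lower in oligodendrocyte precursor-like cells, against 4.77% of 11470 genes lower and 5.87% higher. In astrocyte-like cells 0 of 10 were lower, against 8.33% of 6186 genes lower and 12.1% higher. None of the 10 was 1.5-fold higher in any of the 3 classes. The share in astrocyte-like cells was not above that of all genes. For the 6 targets the median log2 ratio was -0.47 (microglia-like), -0.38 (oligodendrocyte precursor-like cells) and -0.29 (astrocyte-like), beside 0.03, -0.01 and -0.01 for all genes. For the 2 lectin chaperones it was -0.13, -0.02 and 0.04.

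**Figure D4:**
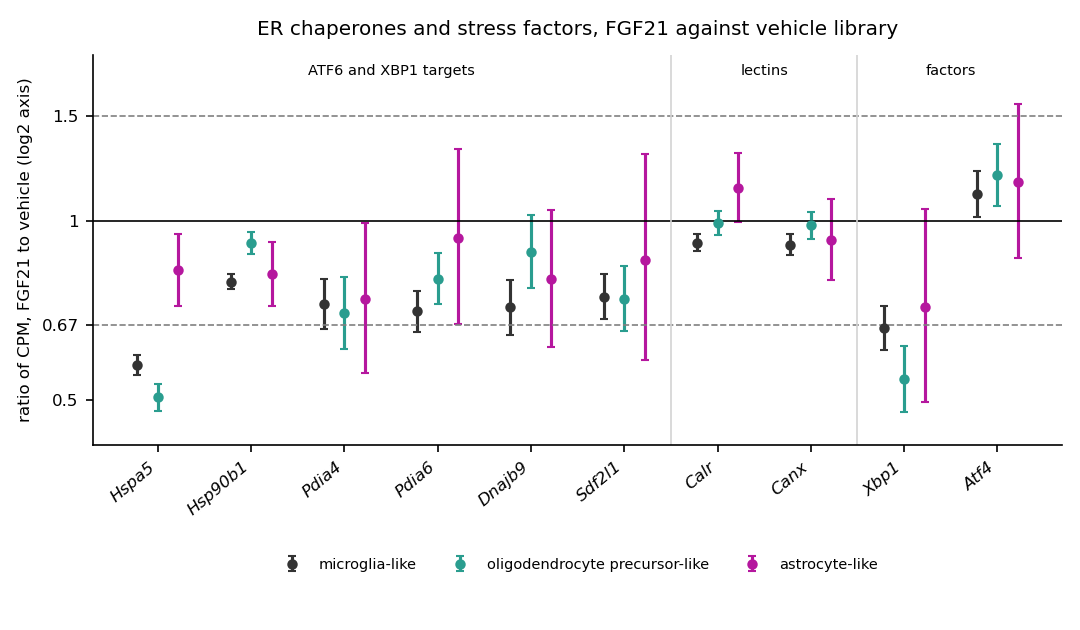
Ratio of the level in FGF21 to that in vehicle (y axis, log2 axis) for each of the 10 genes (x axis), ordered by role, in microglia-like (black), oligodendrocyte precursor-like (green) and astrocyte-like (purple) cells. Bars are 95% intervals for counting error, the solid line is equality and the dashed lines mark 1.5-fold. Hspa5 and Xbp1 lie lowest in black and green (0.505 to 0.660), Calr and Canx lie near 1, and Atf4 lies above 1 in all 3 classes.

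The wider folding machinery had list medians nearer to that of all genes than the 6 targets. Of 18 other chaperones and folding enzymes measured in microglia-like cells, 1 was past 1.5-fold lower and 0 higher (median log2 ratio -0.11), and in oligodendrocyte precursor-like cells 3 of 18 were lower and 0 higher (median -0.02), where 5.27% and 4.77% of all genes were lower in the 2 classes. Manf, a secreted stress-induced factor that binds BiP, was lower in both, at 202 and 135 CPM (ratio 0.667, 0.608 to 0.731) and 189 and 114 CPM (0.604, 0.534 to 0.683). Dnajc3, a J-protein that inhibits PERK, was 283 and 192 CPM in microglia-like cells (0.681, within the 1.5-fold limit) and 193 and 123 CPM in oligodendrocyte precursor-like cells (0.640, 0.568 to 0.722). The remaining gene was Ero1lb, an oxidase that recharges disulfide isomerases (21.7 and 12.5 CPM; 0.577, 0.396 to 0.843). Erp29 and P4hb, the other 2 of the 4 genes with the most UMIs in this list, had ratios of 0.846 and 0.933 in microglia-like cells. In astrocyte-like cells 0 of 16 were lower and 2 were higher, where 8.33% of all genes were lower and 12.1% higher. The 2 higher genes were Dnajc10 and Sil1, with intervals that reach 1 (0.926 to 3.76 and 1.00 to 3.15).

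The lectin cycle also needs sugar-trimming enzymes, cargo receptors and an isomerase. Of 8 such partners measured, 0 were past 1.5-fold in microglia-like cells (median log2 ratio -0.16) and 1 was higher in oligodendrocyte precursor-like cells (median 0.01). That gene was Mogs, the glucosidase that trims the outermost sugar, at 24.5 and 38.7 CPM (ratio 1.58, 1.18 to 2.14). Pdia3, the isomerase that works with both lectins, was 702 and 544 CPM in microglia-like cells (0.774, 0.738 to 0.812). Of the genes for degradation of misfolded proteins, 0 of 16 were past 1.5-fold in microglia-like cells (median -0.20) and 0 of 17 in oligodendrocyte precursor-like cells (median -0.06). Within that list Herpud1, which is induced by stress, was 301 and 217 CPM (0.721), and Os9, a lectin of the degradation pathway, was 232 and 280 CPM (1.21). Of the 22 genes of the translocon and early processing, 1 was past 1.5-fold in microglia-like cells and 0 in oligodendrocyte precursor-like cells. That gene was Sec61g, a subunit of the protein channel, at 80.4 and 131 CPM (1.63, 1.45 to 1.83). By the same limit, 5.27% of all genes were lower and 12% higher in microglia-like cells. In oligodendrocyte precursor-like cells 4.77% were lower and 5.87% higher. Whether counts of 0 or 1 in lists this short differ from these shares was not tested.

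Few of the sensors and their cofactors were past 1.5-fold in the 2 largest classes. Of 13 measured, 0 were past it in microglia-like cells (median log2 ratio -0.14), where 5.27% of all genes were lower and 12% higher. Within that limit their log2 ratios ran from -0.58 to 0.26. Atf6 was 87.9 and 78.2 CPM (ratio 0.890, 0.781 to 1.01), and Mbtps1, the protease that cuts ATF6, was 86.0 and 59.3 CPM (0.689, 0.598 to 0.793). That Mbtps1 ratio was lower than those of the ATF6 and XBP1 targets other than Hspa5. In oligodendrocyte precursor-like cells 1 of 13 was lower, Creb3l2, a relative of ATF6 (78.4 and 48.9 CPM; 0.624, 0.516 to 0.756). There 4.77% of all genes were lower and 5.87% higher. In astrocyte-like cells 3 of 9 were lower and 1 was higher (median -0.45), where 8.33% of all genes were lower and 12.1% higher. Of these 4, only Atf6 had an interval clear of 1 (0.567, 0.334 to 0.980), and those of Eif2s1 (0.362 to 1.19), Nfya (0.384 to 1.18) and Mbtps1 (0.808 to 3.33) spanned it.

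Known ATF4 targets had a median above that of all genes in microglia-like cells. Of 19 measured, 5 were past 1.5-fold higher and 1 lower, with a median log2 ratio of 0.28, where 12% of all genes were higher and 5.27% lower. The ratio was below 1 for 6 of the 19. Among the 4 with the most UMIs, Slc3a2 stood at 0.889 (0.835 to 0.946), Nars at 0.944 and Cebpg at 1.03. Mthfd2 and Shmt2, enzymes of mitochondrial one-carbon metabolism, were 13.8 and 33.0 CPM (ratio 2.38, 1.83 to 3.14) and 33.8 and 55.5 CPM (1.64, 1.37 to 1.97). Ddit4 and Sesn2, inhibitors of mTORC1 signalling, had ratios of 1.54 (1.43 to 1.67) and 1.54 (1.02 to 2.36), and the lower gene was Atf3 at 9.56 and 5.95 CPM (0.622, 0.392 to 0.973). In oligodendrocyte precursor-like cells 1 of 18 was higher, Phgdh, the first enzyme of serine synthesis (54.3 and 87.1 CPM; 1.60, 1.32 to 1.96), 0 were lower, and the median was 0.13. In astrocyte-like cells 1 of 10 was higher and 1 lower (median 0.03). Of all genes, 5.87% were higher and 4.77% lower in oligodendrocyte precursor-like cells, and 12.1% and 8.33% in astrocyte-like cells.

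Heat shock genes, which answer to unfolded protein outside the endoplasmic reticulum and to tissue handling, also differed. Their list was mainly cytosolic but held the mitochondrial chaperonin genes Hspd1 and Hspe1. In microglia-like cells 7 of 15 were past 1.5-fold lower in FGF21 and 0 higher (median log2 ratio -0.51), in oligodendrocyte precursor-like cells 2 of 14 (median -0.18), and in astrocyte-like cells 2 of 12 (median -0.30). Of all genes, 5.27%, 4.77% and 8.33% were lower in these 3 classes. Hspa1b was 18.9 and 1.80 CPM in microglia-like cells (ratio 0.0951, 0.0444 to 0.182), Hspb1 33.1 and 5.59 CPM (0.169), and Dnaja1 373 and 208 CPM (0.557, 0.518 to 0.599). Hsp90ab1 was 947 and 948 CPM (1.00, 0.964 to 1.04). Of the immediate early genes, 4 of 10 were lower in microglia-like cells, among them Jun (269 and 138 CPM; 0.514) and Fos (13.8 and 3.60 CPM; 0.261), and 1 was higher, Nr4a1. The free RNA estimate came to 163% of the level of Nr4a1 and 80.9% of that of Hspb1 in these cells. In oligodendrocyte precursor-like cells 0 of 9 immediate early genes were lower and 2 were higher. Of all genes, 12% were higher in microglia-like cells and 5.87% in oligodendrocyte precursor-like cells. The part of tissue handling in the chaperone ratios was not tested.

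**Figure D5:**
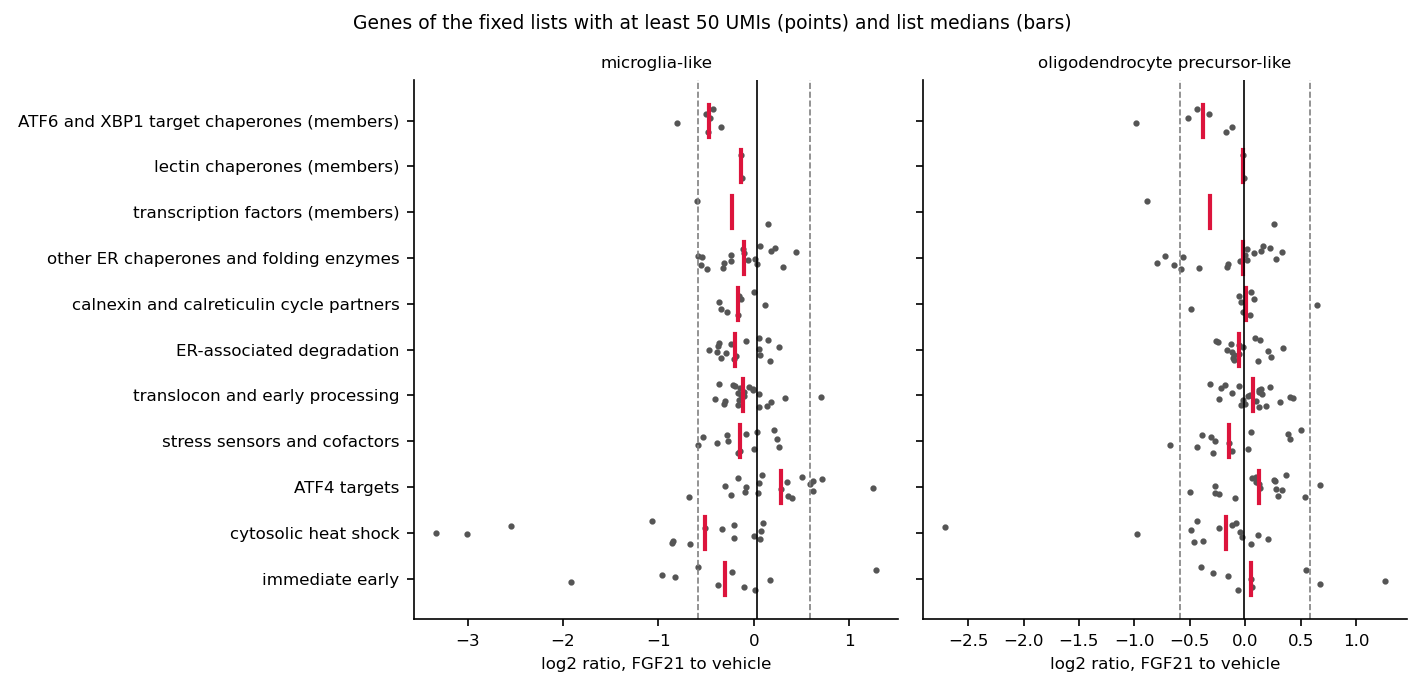
Log2 ratio of FGF21 to vehicle (x axis) of the genes with at least 50 UMIs (points) in each list (y axis), in microglia-like (left) and oligodendrocyte precursor-like (right) cells. Bars are list medians, the solid line is the median of all genes (0.03 left and -0.01 right) and the dashed lines mark 1.5-fold. Chaperone targets and heat shock genes lie to the left in the left panel (medians -0.47 and -0.51), lectin chaperones near the line and ATF4 targets to the right (0.28).

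Across single microglia-like cells with at least 2000 UMIs (1351 vehicle and 868 FGF21), the 8 genes most alike to Hspa5 in both libraries among 5965 compared were Calr, Hsp90b1, Fcrls, Manf, Pdia3, Canx, Ctsd and Xbp1. Likeness was Pearson's correlation of log-scaled counts, taken as the smaller value of the 2 libraries. The values were weak, 0.170 in vehicle and 0.228 in FGF21 for Calr and 0.0954 and 0.141 for Xbp1, and cells of a library share its free RNA and depth. Atf4 ranked at 3570, with -0.01 and 0.07. By this smaller value Calr was nearest to Hspa5 from cell to cell, although its ratio between the libraries was close to 1.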

How the data were processed

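Single-cell counts of 1 vehicle and 1 FGF21 library were used as the authors deposited them: error-corrected UMI counts per cell and gene. The BD WTA Rhapsody Analysis Pipeline, version 1.9.1 per the file headers, made them, on GRCm38 per the submitters' processing notes. Genes missing from a table were set to 0. Cells were kept from 500 UMIs and 300 genes upward, with no more than 25% mitochondrial UMIs. Scrublet in scanpy 1.11.5, run per library, removed 17 and 16 doublets (0.767%). Leiden clusters (2000 variable genes, without the 10 genes and the related lists) were named from markers. UMIs were summed per class and library and divided by the class total (CPM), with exact 95% intervals (Poisson for levels, conditional binomial for ratios, Clopper-Pearson for shares). Log2 ratios had 0.5 UMIs added. Ratios used classes of at least 50 cells a library; those of classes with at least 20, levels by cluster and common limits for tertiles were added after seeing the data. The code was tested on simulated data. Named were all 10 genes, from each list the 4 with the most UMIs and those past 1.5-fold (at most 4 a direction and class), and the 8 most alike to Hspa5, of which the text gives the ones its comparisons turn on. The genes and lists were chosen with earlier results of these data known. Positions of exons were from GENCODE vM21.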

Additional observations from a re-analysis of the deposited data

How the results depend on the processing

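The Hspa5 ratio and the numbers of genes past 1.5-fold were recomputed under 10 alternatives: all genes in the clustering, at most 10% mitochondrial UMIs, at least 1000 UMIs per cell, doublets kept, no mitochondrial genes, median-centred ratios, free RNA subtracted, equal weight per cell, 2000 UMIs per cell, and without the 5% deepest cells. Over them the Hspa5 ratio ran from 0.560 to 0.590 in microglia-like, 0.475 to 0.512 in oligodendrocyte precursor-like and 0.777 to 1.04 in astrocyte-like cells. With free RNA subtracted it was 0.475 in oligodendrocyte precursor-like cells and 1.04 in astrocyte-like cells. The number lower in microglia-like cells was 1 with free RNA subtracted, with equal weight per cell and at 2000 UMIs, and the number lower in astrocyte-like cells was 2 at 2000 UMIs per cell; the cause was not tested. Atf4 was above 1 and Xbp1 below 1 in all 3 classes under all 10 alternatives. In astrocyte-like cells Pdia6, Dnajb9 and Sdf2l1 crossed 1 under some of them (highest values 1.10, 1.00 and 1.18). No paired analysis was possible because each treatment has 1 library.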
